A study of Arabidopsis thaliana with 28 samples.

Results

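Gene expression of wild-type (WT) F1 hybrids was compared with the mid-parent value (MPV), the level that a hybrid would show if both parental genomes contributed equally and additively. The comparison used 12 of the 28 samples of the study, all 12 WT libraries among its 24 RNA-seq libraries: 3 replicates each of the reciprocal hybrids ColXC24 and C24XCol and of the inbred parents Col (Columbia) and C24, 2 natural accessions of Arabidopsis thaliana. The first accession of a hybrid name is the mother. All samples were whole seedlings, 2 weeks old, grown on Murashige and Skoog agar under long days at 22 °C. Before growth, the seeds of all groups were kept at 4 °C for 7 days, and the effect of this shared cold was not tested. Every value averages over roots, leaves and shoot apex, and fewer cells of a type and less RNA per cell cannot be told apart. None of the 12 libraries is labelled as a mutant, and the other 12 RNA libraries are the same crosses and parents in the background of ddm1, a mutant of the chromatin remodeler gene DDM1. The labels give replicate numbers only, so p-values measure the spread between these samples, which may be technical. The 6 hybrid libraries were set against 3 MPV values, each averaged from 1 Col and 1 C24 library that carry that number. Values are RPM, the reads of a gene scaled to a common library total, rescaled so that the median gene has the same level in all 12 libraries, and differences are on the log2(rescaled RPM + 0.5) scale, which understates the change of low genes.

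A gene whose level in a hybrid departs from MPV is called non-additively expressed. Such a departure can place the hybrid near the higher parent, near the lower parent or outside both. In the vernalization pathway, the MADS-box repressor FLC binds the floral activator genes FT and SOC1 and keeps them low until cold silences it, and FRI raises FLC in winter-annual accessions. Salicylic acid (SA) is a defence hormone made from chorismate by ICS1 and PBS3, perceived by NPR proteins and read out by pathogenesis-related (PR) genes, and high SA is associated with small plants.

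Before the comparison, the libraries were examined for features that the groups do not explain. Hybrid libraries held transcripts of both parents: the 64 genes at 0 RPM in every C24 library and at a mean of at least 3 in Col were all found in all 6 hybrid libraries, at a median of 0.54 times the Col level, and 23 of the 27 genes at 0 in every Col library were found in all 6, at a median of 0.48 times the C24 level. Libraries with the same replicate number deviated together in all 4 groups, and the number therefore entered each fit as a block. C24XCol replicate 2 and C24 replicate 2 stood apart in clock genes. CCA1, a morning clock repressor, had 67.0 rescaled RPM in C24XCol replicate 2 and 4.07 in ColXC24 replicate 2, against 75.8 in C24 replicate 2 and 4.47 in Col replicate 2, and TOC1, an evening clock gene, had 39.6 and 182 in the same hybrid libraries, against 46.7 and 171 in the same parents. The other 8 libraries lay between 0.697 and 9.32 for CCA1 and between 209 and 272 for TOC1. Seed RNA also differed. The summed level of 14 seed storage and late embryogenesis genes was 169, 81.5 and 7.06 in ColXC24 and 748, 179 and 130 in C24XCol, against 20.8, 15.6 and 9.67 in Col and 2092, 1198 and 527 in C24, so it was highest in the C24 libraries and, within each replicate number, higher in the hybrid with a C24 mother. Photosystem gene sums were lower in replicate 3 (47921 to 55868) than in replicates 1 and 2 (90312 to 133433) in every group. The part of these differences in the results was not tested beyond the values given without replicate 2 or with other libraries left out.

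**Figure D1:**
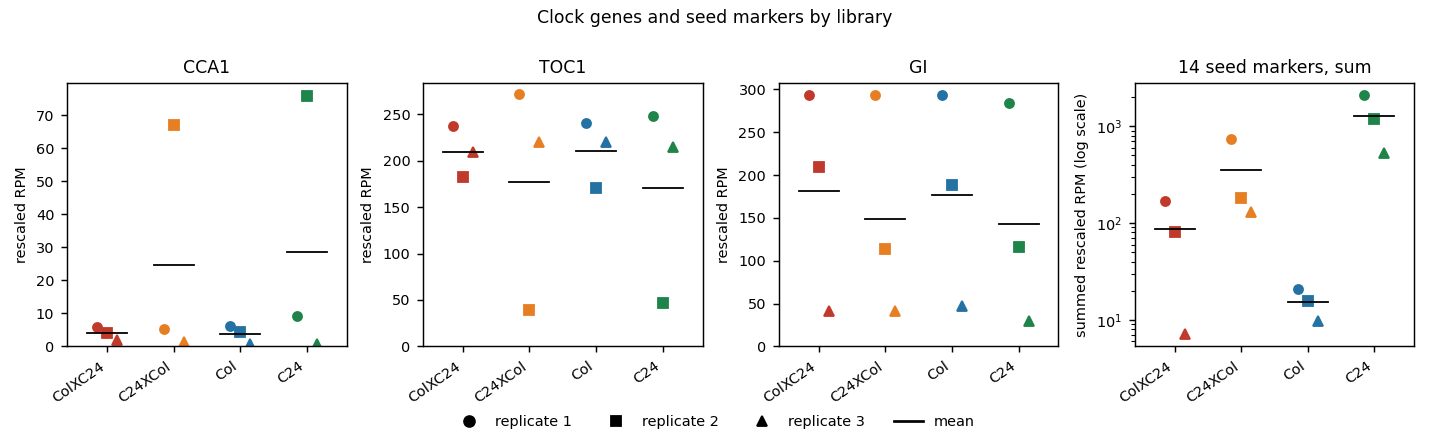
Rescaled RPM of the clock genes CCA1, TOC1 and GI and the summed rescaled RPM of 14 seed markers (log axis) in each of the 12 WT libraries; the points are single libraries, the symbol gives the replicate number and the bar is the mean of 3. In replicate 2, C24XCol and C24 lie at 67.0 and 75.8 for CCA1, against 4.07 and 4.47 in ColXC24 and Col, and the seed marker sum is highest in C24.

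Of 28437 genes, 20065 had at least 1 RPM in at least 3 of the 12 libraries and were tested. Adjusting limma p-values by Benjamini-Hochberg and calling those under 0.05, 25 genes lay above MPV (0.125% of the genes tested) and 71 below (0.354%). At the unadjusted threshold of 0.05, 964 lay above (4.8%) and 1399 below (6.97%). The median difference of the 25 genes was 0.52 and that of the 71 was -0.75, with the median of all genes tested at -0.01. All 6 hybrid values lay above all 3 MPV values in 42 genes (0.209%) and below them in 145 (0.723%). Of the called genes, 5 of the 25 above and 38 of the 71 below had no such overlap. Without the block no gene passed the adjusted threshold (smallest limma adjusted p 0.159), and 41 lay above and 220 below at the unadjusted one, among them 11 of the 25 and 49 of the 71. Leaving out all values of replicate 1 also left 0 limma calls (585 above and 827 below at the unadjusted threshold), and without replicate 2 there were 24 above and 69 below, 64 of them among the 96.

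The genes above and below MPV differed in how the parents stood. Of the 71 genes below, 57 had a higher mean in C24 than in Col, 47 of these by more than 2-fold, and the hybrid mean lay between the parental means in all but 20. Of the 25 genes above, 8 had the higher mean in C24, and all 25 hybrid means exceeded both parental means. Some did so only slightly, as FLC with 75.9 in the hybrids and 73.6 in C24. Over all genes tested, 5368 of 10457 with a difference below 0 and 4693 of 9608 above 0 were higher in C24. The hybrid mean lay below both parental means in 38% of the former and above both in 45.8% of the latter.

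Placing each hybrid mean on a scale with Col at 0, MPV at 0.5 and C24 at 1 showed the same. The 817 genes with C24 at least 2-fold above Col had a median position of 0.41 (quartiles 0.25 and 0.53), and 70.9% of them lay nearer Col. The 727 genes with Col at least 2-fold above C24 had a median of 0.48 (quartiles 0.39 and 0.57), with 58.3% nearer Col. The same libraries set the parental difference and the position, so this is a description.

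**Figure D2:**
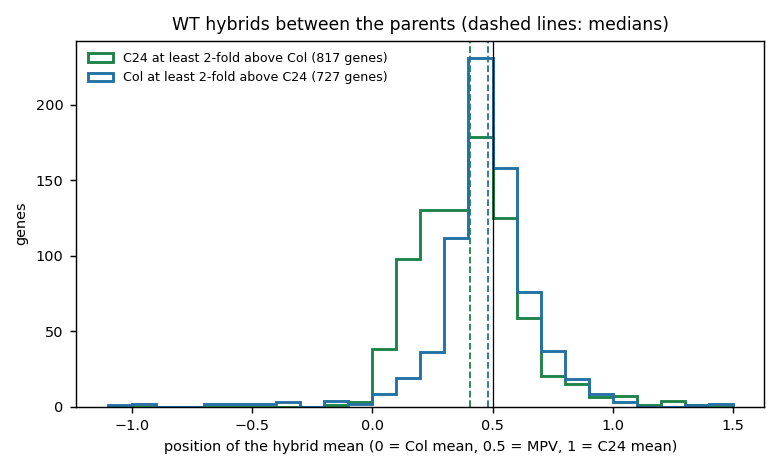
Histogram of the position of the hybrid mean between the parental means (0 is the Col mean, 0.5 is MPV, 1 is the C24 mean) for genes with a parental difference of at least 2-fold; counts of genes are on the y axis and dashed lines are the medians. The 817 genes higher in C24 have their median at 0.41 and the 727 genes higher in Col at 0.48.

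Flowering genes held the smallest p-value of the comparison. FLC had 64.8, 85.2 and 76.0 rescaled RPM in ColXC24 and 63.4, 81.5 and 84.2 in C24XCol, against 32.7, 38.9 and 39.8 in MPV. In the parents, FLC had 0.740, 0.583 and 0.697 in Col and 64.7, 77.2 and 79.0 in C24. Every hybrid library was thus at the level of C24 and about 2-fold above MPV, with no overlap (difference 1.02, SE 0.06, limma adjusted p 0.000244). With MPV as the mean of log2 values the difference was 3.03. The counting settings do not state strand, so reads of the antisense transcripts known at FLC cannot be told apart from those of the gene. FRI, the activator of FLC, had 9.29 ± 1.90 rescaled RPM in the hybrids and 9.30 ± 2.26 in MPV (SD, n = 6 and n = 3).

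SOC1, a MADS-box activator of flowering, had 19.7, 18.6 and 10.01 rescaled RPM in ColXC24 and 14.4, 19.4 and 6.13 in C24XCol, against 41.0, 47.6 and 27.9 in MPV. The hybrids were also below most parental values, 58.3, 60.5 and 37.8 in Col and 23.8, 34.8 and 18.0 in C24, and within each replicate number both hybrids were below both parents (difference -1.44, SE 0.16, limma adjusted p 0.0103). FT, the mobile flowering signal, was at 0, 0.321 and 0.179 in ColXC24 and 0.111, 0 and 0.0876 in C24XCol, against 0.892, 1.09 and 0.950 in MPV. The parents had 1.16, 1.17 and 1.13 in Col and 0.621, 1.01 and 0.767 in C24. Every hybrid value of FT was below every parental value (difference -1.28, SE 0.18, limma adjusted p 0.0249), although all lie near the 0.1 RPM step of the table. FUL, a MADS-box gene of the shoot meristem, was at 0.446, 0.643 and 0.626 in ColXC24 and 0.332, 0.432 and 0.964 in C24XCol, against 1.097, 1.49 and 2.24 in MPV (difference -0.96, SE 0.14, limma adjusted p 0.0264), with means of 1.71 in Col and 1.51 in C24. These 3 genes and FLC did not change sign when any library was left out.

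FLC is known to bind CArG boxes, the recognition sequence of MADS-box proteins, in the SOC1 promoter. The stretch around the only match to the CArG box within 1000 bases before the annotated SOC1 start is shown because SOC1 is the gene furthest below MPV by the rule for named genes. The match, in capitals, runs from 711 to 702 bases before the start, on the TAIR10.1 build of RefSeq.
SOC1 upstream, chr2:18811807-18811856, minus strand: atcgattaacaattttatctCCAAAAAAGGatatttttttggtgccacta
Such a match on either strand was present in the same 1000 bases of 1455 of 20048 genes tested (7.26%), and it is a description of the sequence, not a bound site.

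**Figure D3:**
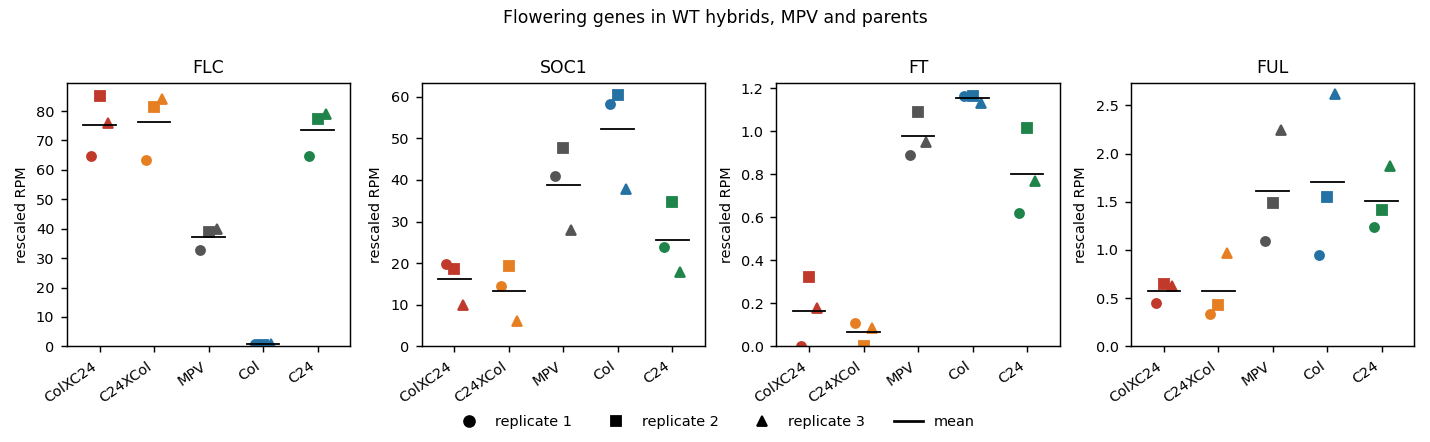
Rescaled RPM of FLC, SOC1, FT and FUL in each library of ColXC24 and C24XCol, in the 3 MPV values and in Col and C24; points are libraries, symbols the replicate numbers and bars the means. FLC in the hybrids (63.4 to 85.2) lies at the C24 level, and FT in the hybrids (0 to 0.321) lies below both parents.

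Among 12 tested floral promoters and meristem identity genes, 3 fell below MPV at the adjusted threshold (SOC1, FT and FUL) and 6 at the unadjusted one, none rose, and the median was -0.36. The shares below over all genes tested were 0.354% and 6.97%. Without the block 4 of the 12 lay below at the unadjusted threshold. SPL15 and SPL4, microRNA-regulated SPL factors of the age pathway, were chosen for mention after their values were seen. Their differences were -0.76 (SE 0.15) and -0.55 (SE 0.11), with limma adjusted p of 0.0683 and 0.0710. SPL15 had 1.00, 0.536 and 1.07 in ColXC24 and 0.775, 0.432 and 0.789 in C24XCol, against 2.21, 0.836 and 2.12 in MPV, and its hybrid mean was near that of C24 (0.768, against 0.792). Among 23 tested flowering repressors and their regulators, FLC alone passed the adjusted threshold, and 3 lay above and 3 below at the unadjusted one (median 0.03). MAF5, a relative of FLC in a tandem array, had 3.23, 2.46 and 2.32 in ColXC24 and 3.76, 1.51 and 1.84 in C24XCol, against 4.53, 3.81 and 3.43 in MPV (difference -0.59, limma adjusted p 0.156). SMZ, an AP2-type repressor, had a difference of 0.34 (limma adjusted p 0.147). MAF5 and SMZ too were chosen after their values were seen.

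SA-responsive genes lay below MPV as a group. Of 25 tested, 6 fell at the adjusted threshold (PNP-A, PR5, PR2, WRKY18, WRKY38 and WRKY51) and 18 at the unadjusted one, none rose, and the median was -0.46. Over all genes tested, 0.354% fell at the adjusted threshold and 6.97% at the unadjusted one. Without the block 0 of the 25 fell at the adjusted threshold and 10 at the unadjusted one. The lists were drawn up with earlier results of these data known, so their counts are descriptions. With MPV taken as the mean of log2 values, which weights the lower parent more, 4 fell, 1 rose and the median was -0.27. Without replicate 2, 9 fell at the adjusted threshold and 19 at the unadjusted one (median -0.53), and 6.55% of all genes lay below at the unadjusted one. PNP-A, which encodes an expansin-like peptide linked to natriuretic responses, had 3.68, 7.93 and 8.14 rescaled RPM in ColXC24 and 3.87, 8.97 and 7.71 in C24XCol, against 10.1, 19.9 and 19.1 in MPV. Its level in the hybrids was that of Col (5.08, 10.001 and 8.89) and not of C24 (15.1, 29.7 and 29.3), and no hybrid value reached MPV (difference -1.24, SE 0.08, limma adjusted p 0.000324).

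PR5, a thaumatin-like protein of acquired resistance, had 10.9, 13.1 and 19.8 in ColXC24 and 11.4, 14.4 and 18.1 in C24XCol, against 29.0, 27.2 and 30.2 in MPV (difference -0.99, SE 0.11, limma adjusted p 0.0103). PR2, a beta-1,3-glucanase, had 142, 67.3 and 79.6 in ColXC24 and 136, 89.6 and 73.5 in C24XCol, against 211, 133 and 112 in MPV (difference -0.64, limma adjusted p 0.0249). The ranges of PR2 overlap between hybrids and MPV, but in each replicate number both hybrids were below it. PR1, the usual marker of SA signalling, had 135, 174 and 119 in ColXC24 and 101, 99.8 and 91.1 in C24XCol, against 179, 206 and 276 in MPV. Its ranges did not overlap, yet it missed the adjusted threshold (difference -0.89, SE 0.20, limma adjusted p 0.118), and with MPV as the mean of log2 values the difference was -0.08. WRKY38, WRKY51 and WRKY18 encode WRKY transcription factors, of which WRKY38 is known as a repressor of basal defence. Their differences from MPV were -1.29 (SE 0.18), -0.84 (SE 0.12) and -0.54 (SE 0.07), with limma adjusted p of 0.0249, 0.0264 and 0.0173. With MPV as the mean of log2 values PR2 (-0.35, limma adjusted p 0.352) and WRKY51 (-0.43, limma adjusted p 0.0765) lost their calls, and PR5 and WRKY38 kept theirs at -0.58 and -0.78.

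SA synthesis genes and their regulators showed smaller differences. Of 17 tested, 1 fell at the adjusted threshold and 8 at the unadjusted one, none rose, and the median was -0.20. The shares below over all genes tested were 0.354% and 6.97%. The gene that passed was SARD1, a transcription factor that activates ICS1, with 8.37, 6.86 and 9.83 in ColXC24 and 7.42, 7.57 and 10.3 in C24XCol, against 12.3, 10.7 and 15.9 in MPV (difference -0.60, SE 0.08, limma adjusted p 0.0173). ICS1, the isochorismate synthase, had 21.1, 22.8 and 18.24 in ColXC24 and 18.0, 32.0 and 20.9 in C24XCol, against 29.4, 34.2 and 30.5 in MPV. C24XCol replicate 2, one of the libraries that stood apart in clock genes, was the highest hybrid library of ICS1, and the difference of -0.51 (SE 0.11) had a limma adjusted p of 0.106. PBS3, which conjugates isochorismate to glutamate, differed by -0.72 (SE 0.13, limma adjusted p 0.0546), and PAD4, a lipase-like regulator of SA accumulation, by -0.44 (SE 0.11, limma adjusted p 0.148). Without the block 0 of the 17 genes fell at the adjusted threshold and 5 at the unadjusted one. Without replicate 2, 3 of the 17 genes fell at the adjusted threshold. With the log2 mean as MPV 2 fell, 6 lay below at the unadjusted threshold (median -0.16), and SARD1 lost its call (difference -0.39, limma adjusted p 0.107).

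Of 12 tested SA receptors, NIMIN partners and turnover enzymes, 1 fell at the adjusted threshold and 6 at the unadjusted one, with a median of -0.19. The shares below over all genes tested were 0.354% and 6.97%. Without the block 0 of the 12 fell at the adjusted threshold and 1 at the unadjusted one. NIMIN-2, which encodes a small NPR1-binding protein, had 3.23, 5.03 and 5.54 in ColXC24 and 2.66, 4.54 and 4.99 in C24XCol, against 5.34, 6.99 and 10.3 in MPV (difference -0.73, SE 0.11, limma adjusted p 0.0264). None of the 12 passed the adjusted threshold with the log2 mean as MPV, where 3 lay below at the unadjusted one (median -0.10) and NIMIN-2 was at -0.29 (limma adjusted p 0.179). In the pathway of N-hydroxypipecolic acid, the mobile signal of systemic acquired resistance, none of 3 genes passed the adjusted threshold and 1, ALD1, lay below at the unadjusted one. ALD1, the aminotransferase that starts it, differed by -0.73 (SE 0.27, limma adjusted p 0.326), AT5G52810, annotated as an NAD(P)-binding Rossmann-fold protein, by 0.16 (limma adjusted p 0.662) and FMO1, the N-hydroxylase, by -0.17 (limma adjusted p 0.837).

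In each of the SA genes given by library above C24 was the higher parent, and the seed marker sum, too, was highest in C24. Its part in the SA results was not tested. ACD6, a membrane regulator of SA signalling at which accessions are known to differ, averaged 116 in the hybrids, against 121 in MPV, 120.5 in Col and 121 in C24 (difference -0.01, SE 0.12).

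**Figure D4:**
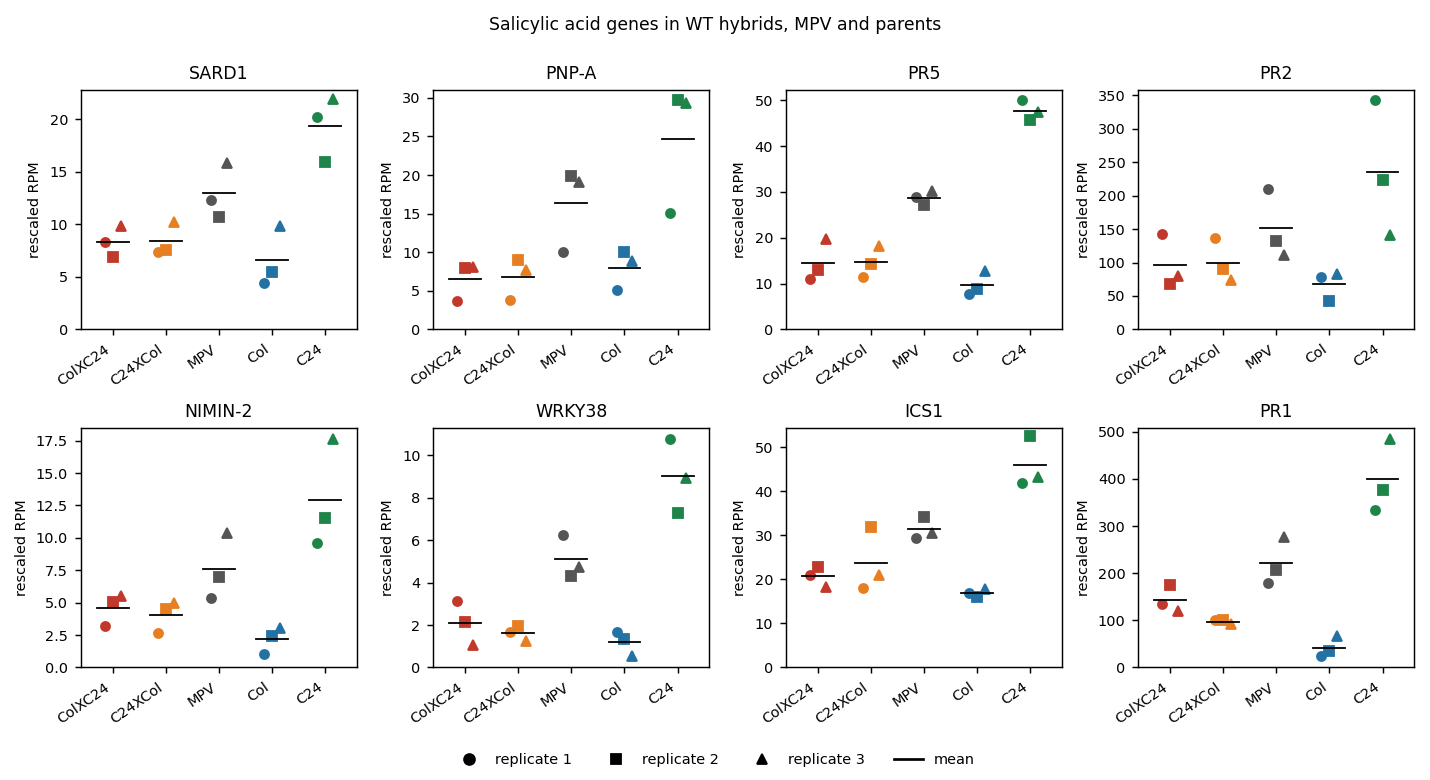
Rescaled RPM of SARD1, PNP-A, PR5, PR2, NIMIN-2, WRKY38, ICS1 and PR1 in each library of ColXC24 and C24XCol, in the 3 MPV values and in Col and C24; points are libraries, symbols the replicate numbers and bars the means. For PNP-A the hybrids (3.68 to 8.97) lie at the Col level and below every MPV value.

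TTGAC is the core of the W box, the recognition sequence of WRKY factors. On either strand it was present in the 250 bases before the annotated start of 46 of the 71 genes below MPV (64.8%) and of 7 of the 25 above (28%), against 9050 of 20048 genes tested (45.1%). The longer form TTGACT, which contains that core, was present in 27 of the 71 (38%) and 5 of the 25 (20%), against 18.9% of all, and TTGACC in 7 (9.86%) and 3 (12%), against 12.1%. In the 25 SA-responsive genes the core was found in 15 (60%). The G box CACGTG was in 4 of the 71 (5.63%) and in 7.4% of all genes, and the evening element AAAATATCT in 0 of the 71 and in 2.5% of all. These shares describe sequence only. The windows of the following SA genes are shown because they fell below MPV and hold the core; capitals mark every TTGAC and its complement GTCAA, and coordinates are of TAIR10.1 (RefSeq).
SARD1 upstream, chr1:27749249-27749498, minus strand: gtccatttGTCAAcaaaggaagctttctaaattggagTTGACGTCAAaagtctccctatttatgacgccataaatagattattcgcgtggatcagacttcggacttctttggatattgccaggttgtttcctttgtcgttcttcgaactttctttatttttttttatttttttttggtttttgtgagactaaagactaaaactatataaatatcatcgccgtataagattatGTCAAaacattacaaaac
NIMIN-2 upstream, chr3:9471040-9471289, minus strand: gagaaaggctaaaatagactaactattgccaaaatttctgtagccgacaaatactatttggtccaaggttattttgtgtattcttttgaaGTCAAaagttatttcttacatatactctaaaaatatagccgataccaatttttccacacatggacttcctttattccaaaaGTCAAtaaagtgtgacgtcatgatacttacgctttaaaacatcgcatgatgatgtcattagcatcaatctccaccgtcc
PNP-A upstream, chr2:8091737-8091986, minus strand: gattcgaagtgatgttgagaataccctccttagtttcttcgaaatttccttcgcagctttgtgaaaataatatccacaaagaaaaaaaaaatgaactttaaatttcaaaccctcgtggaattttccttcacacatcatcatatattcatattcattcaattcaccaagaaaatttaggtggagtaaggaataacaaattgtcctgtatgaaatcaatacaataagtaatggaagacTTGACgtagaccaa
PR5 upstream, chr1:28177420-28177669, plus strand: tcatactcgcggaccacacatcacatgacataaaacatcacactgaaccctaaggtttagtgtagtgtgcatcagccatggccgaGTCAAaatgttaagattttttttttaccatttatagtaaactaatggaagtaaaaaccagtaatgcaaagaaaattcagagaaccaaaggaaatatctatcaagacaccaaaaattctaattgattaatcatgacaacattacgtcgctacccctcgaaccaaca
SARD1 held 4 matches, 2 of them directly adjacent on opposite strands, NIMIN-2 held 2, and PNP-A and PR5 held 1 each. The matches in NIMIN-2 and PR5 read TTGACT. Those in SARD1 and PNP-A read neither TTGACT nor TTGACC, so these 2 windows hold the core alone.

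Other genes furthest below MPV with no overlap included receptor-like kinases and defence-related genes that were on no list. CRK4, a cysteine-rich receptor-like kinase, had 10.3, 7.39 and 16.2 in ColXC24 and 12.3, 7.35 and 17.3 in C24XCol, against 28.7, 21.3 and 35.9 in MPV (difference -1.29, SE 0.09, limma adjusted p 0.000575). Within each replicate number both hybrids were below Col (12.8, 8.64 and 24.8), and C24 was higher (44.5, 33.9 and 46.9). Of 36 tested CRK genes, 4 fell at the adjusted threshold (CRK4, CRK7, CRK14 and CRK23) and 13 at the unadjusted one, and none rose (median -0.15). The shares below over all genes tested were 0.354% and 6.97%. CRK genes are similar in sequence and some lie in tandem, so the values of single members are uncertain. Of 47 receptor-like protein (RLP) genes, 3 fell at the adjusted threshold (RLP23, RLP37 and RLP43), with 9 below and 1 above at the unadjusted one, and of 9 wall-associated kinases 1 fell (WAK3). RLP23 senses a peptide of microbial NLP toxins. With MPV as the mean of log2 values CRK7, CRK14, RLP23 and RLP43 lost their calls (-0.53, -0.39, -0.67 and -0.39, limma adjusted p 0.0950, 0.0643, 0.0880 and 0.0529). These families were counted after the calls had been seen. The 10 listed immune receptors and pattern-triggered immunity genes had a median of -0.02. None passed the adjusted threshold, and FRK1, FLS2 and ADR1 differed by -0.29, 0.09 and -0.10.

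AT5G10760, named APOPLASTIC, EDS1-DEPENDENT 1 in the annotation and encoding an aspartyl protease, had 61.2, 47.6 and 33.7 in ColXC24 and 62.7, 47.2 and 32.4 in C24XCol, against 120, 81.2 and 80.7 in MPV (difference -0.997, SE 0.08, limma adjusted p 0.00142). NUDT6, a Nudix hydrolase known to act on NADH in SA signalling, had 7.92, 7.07 and 7.96 in ColXC24 and 7.64, 6.92 and 9.46 in C24XCol, against 16.5, 13.4 and 20.6 in MPV (difference -1.05, SE 0.09, limma adjusted p 0.00142). AT1G56120, a leucine-rich repeat receptor kinase, had 12.5, 10.6 and 16.6 in ColXC24 and 12.6, 15.5 and 15.2 in C24XCol, against 24.5, 32.6 and 52.4 in MPV (difference -1.31, SE 0.14, limma adjusted p 0.0103). In each of these genes the 6 hybrid values were closer to Col than to C24. The remaining genes of this kind were AT5G44570 (-1.34), AT3G28510, a P-loop nucleoside triphosphate hydrolase (-1.24), AT3G48640 (-1.17), CRK23 (-1.13), AT4G03450, an ankyrin repeat protein (-1.103), AT5G52720, of the copper transport protein family (-1.04), AT1G13470 (-1.02) and AT5G25260, of the band 7 family (-1.01), with limma adjusted p between 0.00975 and 0.0403. All had C24 as the higher parent. With MPV as the mean of log2 values 4 of these lost their calls, AT3G48640 (0.14, limma adjusted p 0.652), AT1G13470 (-0.17, limma adjusted p 0.565), AT5G44570 (-0.47, limma adjusted p 0.1995) and AT5G25260 (-0.25, limma adjusted p 0.306). AT1G56120, CRK23 and AT4G03450 kept theirs at -0.70, -0.73 and -0.67. PCR1, annotated as PLANT CADMIUM RESISTANCE 1 and chosen after its values were seen, had 8.70, 30.1 and 24.2 in ColXC24 and 11.3, 25.5 and 28.3 in C24XCol, against 25.7, 69.9 and 82.1 in MPV (difference -1.43, SE 0.10, limma adjusted p 0.000628, and -0.72 with MPV as the mean of log2 values).

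Camalexin is an indole phytoalexin. Of 7 genes of its synthesis none passed the adjusted threshold, and 3 lay below and 1 above at the unadjusted one (median -0.16). CYP71A13 and PAD3, its dedicated P450 enzymes, differed by -0.52 and -0.42, and CYP79B3, which also feeds indole glucosinolates, by 0.27. Of 22 jasmonate synthesis and response genes, 1 rose at the adjusted threshold and 5 at the unadjusted one, none fell, and the median was 0.13. Over all genes tested, 4.8% lay above at the unadjusted threshold, and without the block 2 of the 22 did. On RPM as deposited, 1 rose at the adjusted threshold, 3 lay above and 1 below at the unadjusted one, and the median was 0.056. AOS, the allene oxide synthase that commits fatty acids to jasmonate, had 172, 217 and 121 in ColXC24 and 141, 222 and 135 in C24XCol, against 116, 129 and 94.2 in MPV. Both hybrids were above both parents in each replicate number (difference 0.54, SE 0.09, limma adjusted p 0.0374). AOC1, the next enzyme of the pathway and chosen after its values were seen, had a difference of 0.47 (SE 0.09, limma adjusted p 0.0648). Without replicate 2 no jasmonate gene passed the adjusted threshold, and 4 lay above at the unadjusted one.

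Above MPV, 2 genes met the rule for named genes, FLC and AT4G07820, which encodes a CAP-domain protein of the PR1 superfamily. AT4G07820 had 3.90, 11.7 and 3.93 in ColXC24 and 5.65, 9.30 and 4.38 in C24XCol, against 1.89, 3.67 and 2.03 in MPV (difference 1.13, SE 0.14, limma adjusted p 0.0173). Of the other genes above, 3 were singled out after their values were seen. The neighbouring genes AT4G22490 and AT4G22505, both annotated as lipid-transfer and 2S albumin-like proteins, differed by 0.91 (SE 0.06, limma adjusted p 0.000575) and 0.57 (SE 0.08, limma adjusted p 0.0249). AT4G22490 had 202, 107 and 64.5 in ColXC24 and 191, 93.1 and 71.1 in C24XCol, against 102, 55.6 and 34.9 in MPV, so it was above both parents (121, 67.6 and 39.6 in Col and 83.1, 43.6 and 30.2 in C24) within every replicate number. AT4G22505 varied far more between replicate numbers, with 923, 49.5 and 22.1 in ColXC24 and 956, 42.6 and 24.5 in C24XCol, against 584, 28.1 and 18.24 in MPV.

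ESM1 and ESP set the products of glucosinolate breakdown, ESM1 in favour of isothiocyanates and ESP of nitriles and epithionitriles. ESM1, chosen after its values were seen, had 1168, 672 and 449 in ColXC24 and 996, 495 and 364 in C24XCol, against 528, 266 and 246 in MPV (difference 0.95, SE 0.12, limma adjusted p 0.0187). Its hybrids were at the level of Col (981, 500 and 471), with C24 at 76.2, 33.0 and 20.9. ESP had 2000, 2409 and 1207 in ColXC24 and 1541, 2098 and 1273 in C24XCol, against 1151, 1202 and 888 in MPV. Here the hybrids were near the C24 level, with Col at 19.5, 30.1 and 16.4, and the difference was 0.66 (SE 0.12, limma adjusted p 0.0501). Both genes were thus near their higher parent, which was Col for ESM1 and C24 for ESP. The difference of ESP was 2.98 with MPV as the mean of log2 values and past the adjusted threshold (limma adjusted p 3.6e-08), and that of ESM1 was 2.05. AOP2, a side-chain enzyme gene annotated as a transcribed pseudogene in the reference, had an MPV of 386 and a hybrid mean of 345 (difference -0.20, limma adjusted p 0.493). Its parental means were 25.2 in Col and 747 in C24. With MPV as the mean of log2 values its difference was 1.29 (limma adjusted p 1.2e-05), so its direction depends on how MPV is formed. Of 18 aliphatic glucosinolate genes, 1 lay above at the unadjusted threshold, and the median was 0.07. FMO GS-OX3 differed by 0.15.

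Photosynthesis genes lay slightly above MPV. Of 45 tested nuclear genes of the photosystems and the Rubisco small subunit, 42 had differences above 0 and 13 passed the unadjusted threshold above MPV, with none below, none at the adjusted threshold and a median of 0.19. Over all genes tested, 4.8% passed the unadjusted threshold above MPV, and without the block 0 of the 45 did. On RPM as deposited, 4 passed the unadjusted threshold and the median was 0.11, and all genes then had a median of -0.08. PSAE-2, a subunit of photosystem I, had 731, 576 and 320 in ColXC24 and 684, 528 and 325 in C24XCol, against 466, 467 and 264 in MPV (difference 0.38, SE 0.08, limma adjusted p 0.0950). Both hybrids exceeded both parents in every replicate number. PSAD-2 and PSBP-2 differed by 0.32 and 0.36. Of 14 chlorophyll synthesis genes, 13 had differences above 0 and 2 passed the unadjusted threshold above (median 0.08). On RPM as deposited, 0 of the 14 passed it and the median was -0.0013, so no direction is given for this list. CHLG and CHLM, which attach the phytol tail and methylate the ring, differed by 0.18 and 0.15, and CHLD, a subunit of magnesium chelatase, by 0.09. NPQ4, which encodes the photoprotective protein PsbS, was one of 4 genes (0.0199%) whose 6 hybrid values all lay above all 6 parental values. It averaged 2018 ± 183 rescaled RPM in the hybrids, against 1689 ± 219 in Col and 1694 ± 83.0 in C24 (SD, n = 6, 3 and 3). The other 3 were CLH1, a chlorophyllase (hybrids 111 ± 21.2, Col 77.9 ± 15.8, C24 76.6 ± 14.1), ARASP, a chloroplast membrane metalloprotease (hybrids 152 ± 8.88, Col 134 ± 6.66, C24 131 ± 7.82), and AT1G72760. Only 2 genes (0.00997%) had all hybrid values below all parental values, FT and AT1G64625. FT was the single gene of the 6 that passed the adjusted threshold.

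The lists of growth genes had medians near MPV, except the cell cycle list, which lay below. Of 30 tested PIF, auxin and cell expansion genes none passed the adjusted threshold and 3 lay above at the unadjusted one (median 0.02). PIF4, a growth-promoting light-signalling factor, had 239, 139 and 11.9 in ColXC24 and 254, 156 and 16.0 in C24XCol, against 204, 114 and 9.44 in MPV. Each hybrid was above its MPV, but the replicate numbers differed far more than the groups did (difference 0.39, SE 0.09, limma adjusted p 0.134). EXPA8, an expansin, and IAA29, an auxin response repressor, differed by 0.35 and 0.26. Among 9 brassinosteroid and gibberellin genes, CPD, a brassinosteroid enzyme, differed by 0.29 and the gibberellin oxidases GA20OX2 and GA3OX1 by -0.36 and -0.28, all past the unadjusted threshold alone. In 13 cell cycle and DNA replication genes every difference was below 0 (median -0.18). At the adjusted threshold 1 fell and at the unadjusted one 3, against 0.354% and 6.97% of all genes tested. The unadjusted threshold was passed by 0 of the 13 without the block. KN, the cytokinesis syntaxin, fell (9.70, 11.8 and 18.7 in ColXC24 and 9.96, 11.8 and 18.0 in C24XCol, against 12.3, 16.7 and 23.7 in MPV, limma adjusted p 0.0416), and its hybrid values were near those of C24. KN missed the threshold with MPV as the mean of log2 values (limma adjusted p 0.0542). Of 296 tested ribosomal protein genes, 7 lay above and 18 below at the unadjusted threshold, with none past the adjusted one (median -0.06), and both shares were below those of all genes tested. On RPM as deposited, 1 lay above and 69 below (median -0.14), with 316 above and 3096 below over all genes. AT5G08180, AT4G31985 and AT3G52580 differed by -0.33, -0.31 and -0.25.

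Cell wall and water transport genes were among the calls below MPV. LAC17, a lignin-related laccase, had 11.3, 3.43 and 5.81 in ColXC24 and 12.1, 4.22 and 5.78 in C24XCol, against 17.5, 6.98 and 8.28 in MPV (difference -0.61, limma adjusted p 0.0291), and was below both parents in every replicate number. Of 12 tested laccases, 2 fell at the adjusted threshold and 5 at the unadjusted one. Over all genes tested, 0.354% fell at the adjusted threshold, and 6.97% lay below and 4.8% above at the unadjusted one. In 6 tested secondary wall genes all differences were below 0 and 4 passed the unadjusted threshold (median -0.28), with CESA7 and CESA8, cellulose synthase subunits of secondary walls, at -0.33 and -0.29 and the laccase LAC4 at -0.34. Without the block 0 of the 6 passed it. PIP2;4, a plasma membrane aquaporin, had 5.91, 4.50 and 6.88 in ColXC24 and 6.42, 4.22 and 6.66 in C24XCol, against 10.5, 7.62 and 9.72 in MPV (difference -0.65, limma adjusted p 0.0187), again below both parents within each number. TIP2;3, an aquaporin of the tonoplast, differed by -0.66 (limma adjusted p 0.0264), with hybrid values near C24. LAC17, PIP2;4 and TIP2;3 were chosen after their values were seen. Of 15 tested PIP and TIP aquaporins, these 2 fell at the adjusted threshold, and 4 lay below and 2 above at the unadjusted one (median -0.07). PIP2;4 and TIP2;3 are known for expression in roots, and the summed level of 16 root markers was 2170, 2368 and 2423 in ColXC24 and 2050, 2789 and 2152 in C24XCol, against 2199, 2091 and 2111 in Col and 1765, 2014 and 2270 in C24. The listed root markers had a median of -0.13, with 1 of 14 below MPV at the unadjusted threshold (EXPA7, -0.37), and PRP3 and COBL9 differed by -0.21 and -0.28.

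Clock genes showed no call. Of 26 tested, 2 lay above at the unadjusted threshold (LWD1 at 0.23 and ZTL at 0.14), and none passed the adjusted one. CCA1 and LHY, partners in the morning loop, differed by -0.32 (SE 0.69) and -0.48 (SE 0.54). Without replicate 2 the difference of CCA1 was 0.13 and that of TOC1 was 0.02, against -0.11 with it. GI differed by 0.04 and PRR7 by 0.12.

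**Figure D5:**
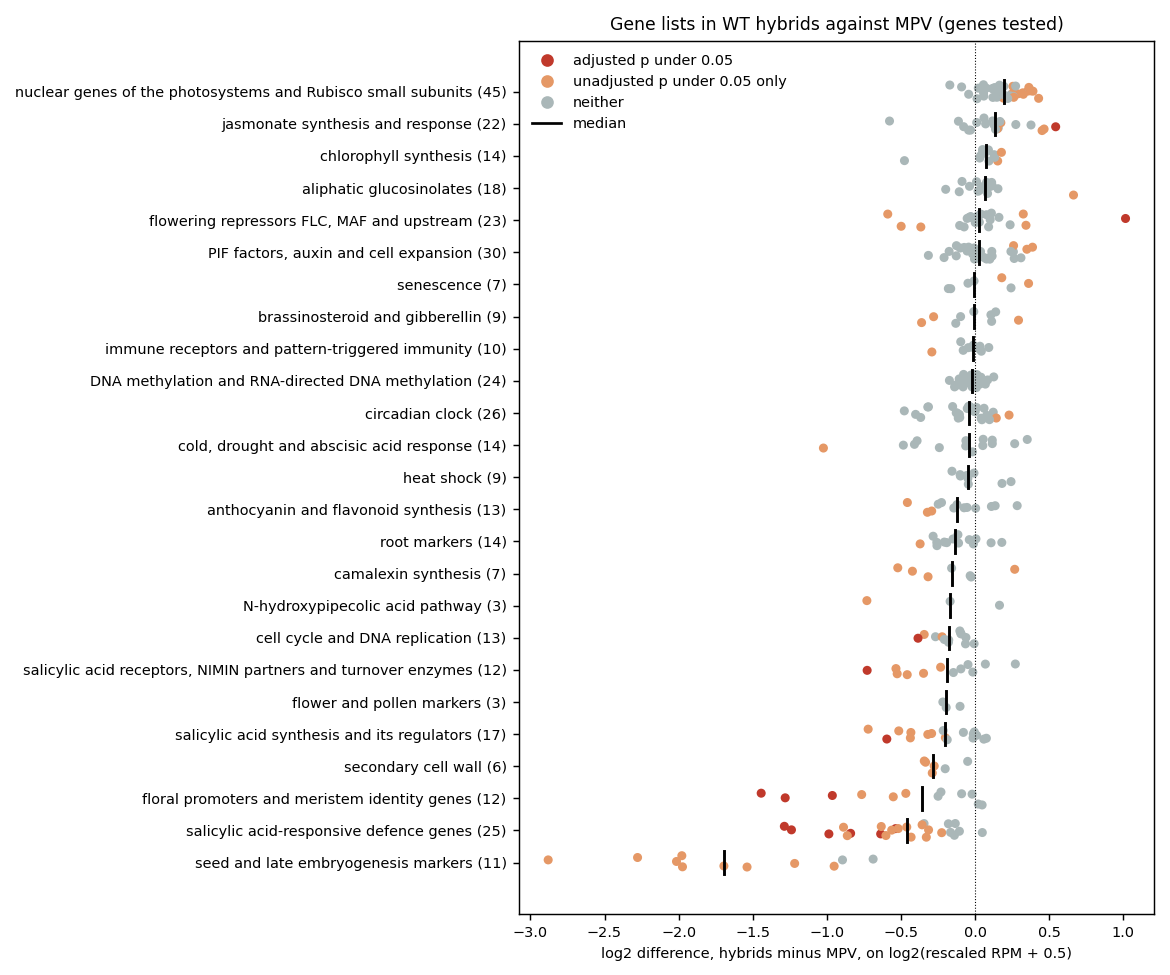
Difference of hybrids from MPV on the log2(rescaled RPM + 0.5) scale for the tested genes of 25 gene lists, ordered by their medians (black bars), with the number of genes tested in brackets; each point is a gene, red for an adjusted p under 0.05, light orange for an unadjusted p under 0.05 alone and grey for neither. The SA-responsive list has its median at -0.46 and the photosystem list at 0.19.

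In the remaining lists single genes stood out, and none passed the adjusted threshold. Of 13 anthocyanin and flavonoid genes, 3 lay below at the unadjusted threshold (median -0.12), TT4, the chalcone synthase (-0.46, limma adjusted p 0.0686), FLS1 (-0.32) and TT5 (-0.29). Of 14 cold, drought and abscisic acid genes, KIN1 had 0.558, 2.999 and 3.397 in ColXC24 and 0.111, 3.57 and 2.28 in C24XCol, against 1.96, 5.97 and 4.77 in MPV (difference -1.02, SE 0.23, limma adjusted p 0.109), while RAB18 and LTI30 differed by 0.27 and -0.24. Of 7 senescence genes, 3 had differences above 0 and 4 below (median -0.01), and 2 lay above at the unadjusted threshold. The 3 above 0 were SEN1, PAO and ORE1, at 0.36, 0.18 and 0.24, and the lowest of the list was -0.18. In 9 heat shock genes (HSP17.6A 0.24, HSP70 -0.16, HSP90.1 -0.10) no gene passed the unadjusted threshold, nor did any of 24 listed genes of DNA methylation and RNA-directed DNA methylation, where the median was -0.02 and NRPD1, KTF1 and DME differed by -0.17, -0.08 and -0.08. DMT2, named as a DNA methyltransferase gene, is outside this list and was chosen after its values were seen. It was called above MPV (difference 0.61, and 0.63 with MPV as the mean of log2 values, limma adjusted p 0.0173). DDM1 had 6.47, 9.11 and 9.57 in ColXC24 and 6.42, 5.84 and 10.6 in C24XCol, against 6.44, 8.16 and 10.8 in MPV. Its difference was -0.08 (SE 0.12, limma adjusted p 0.868).

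Seed genes had the largest differences of any list. Of 11 tested, 9 lay below MPV at the unadjusted threshold, all differences were below 0 and the median was -1.69, but none passed the adjusted threshold. The late embryogenesis gene EM6, the storage albumin SESA3 and the oleosin OLEO2 differed by -0.95, -1.22 and -1.98 (limma adjusted p 0.0651, 0.139 and 0.164). With ColXC24 alone the median was -2.79 and with C24XCol alone -0.72, and their summed levels, given above, were higher in C24XCol than in ColXC24 in every replicate number. The flower markers SEP3, PI and SEP1 differed by -0.22, -0.19 and -0.10.

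The directions of the cross were compared with each other. No gene differed between ColXC24 and C24XCol at a limma adjusted p under 0.05, and 699 of 20065 did at the unadjusted threshold (3.48%), among them 2 of the 25 and 5 of the 71. Without replicate 2, 61 genes passed the adjusted threshold. PR1 was among the named genes with a small unadjusted p for direction (limma p 0.00216), with means of 143 in ColXC24 and 97.3 in C24XCol, which did not pass adjustment.

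The departures from MPV were set against those of the ddm1 hybrids in one fit with an interaction term. DDM1, the mutated gene, had 6.36, 8.90 and 9.35 rescaled RPM in ColXC24 and 6.30, 5.73 and 10.4 in C24XCol, against 4.79, 5.96 and 7.75 in the ddm1 hybrid with a Col mother and 4.72, 6.81 and 7.27 in the one with a C24 mother. In the parents it had 6.53, 9.05 and 10.7 in Col and 6.10, 6.96 and 10.4 in C24, against 3.02, 1.79 and 2.35 in ddm1Col and 7.21, 13.0 and 11.8 in the libraries labelled ddm1C24. The deviation differed between the backgrounds in 537 of 22329 genes (2.4%, limma adjusted p under 0.05). It was higher in WT in 494 (2.21%) and lower in 43 (0.193%). Of the 71 genes below MPV in WT, 69 also had a difference below 0 in ddm1, with medians of -0.75 in WT and -1.55 in ddm1. At a limma adjusted p under 0.05 the WT value was higher, that is, nearer MPV, for 36 of the 71 and lower for 3. The rest did not pass this threshold in either direction. PR1 differed by -0.89 from MPV in WT and by -2.56 in ddm1 (WT minus ddm1 1.67, SE 0.32, limma adjusted p 0.00779), and SARD1 by -0.60 and -1.90 (WT minus ddm1 1.30, SE 0.19, limma adjusted p 0.000924). SOC1 was the reverse, -1.44 in WT and -0.26 in ddm1 (WT minus ddm1 -1.18, SE 0.23, limma adjusted p 0.00775). FLC differed by 1.02 in WT and 1.01 in ddm1 (WT minus ddm1 0.00, with an SE of 0.10). Without the block 179 genes differed between the backgrounds, and the values depend on ddm1C24 libraries in which the DDM1 transcript was not lower than in C24.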

How the data were processed

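RNA-seq libraries of 2-week-old whole seedlings were analysed, 3 per group. Per the study's methods and labels, the authors trimmed the reads, aligned them to TAIR10 with TopHat2, used HTSeq to count reads in genes, and deposited RPM values rounded to 0.1; further version numbers and strand settings are not given in the sources used here. The deposited table holds no read depth, as every library sums to nearly the same total (999819 to 1000187 RPM) and whole reads could not be recovered. The sequencing statistics of the libraries were not used here, so a count test was not used although the study's methods used one. Low values carry the larger rounding error.

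RPM was rescaled by median ratios (factors 0.897 to 1.17), MPV was formed from rescaled Col and C24 of one replicate number, and limma 3.58.1 (R 4.3.3, trend) was fitted to log2(value + 0.5), with a pseudocount of 0.5 and replicate number as block (residual degrees of freedom 5), on the 20065 genes that reached 1 RPM in 3 or more of 12 libraries. P-values were adjusted over all of these genes. Same-numbered libraries deviated together (correlation of deviations from group means 0.829 on average and at least 0.668 over 18 pairs, against -0.42 over 48 pairs of different numbers), so the numbers were taken to pair the samples. The deviations of the 3 libraries of a group sum to 0, so positive values for equal numbers force negative ones for different numbers. The -0.42 is therefore not separate evidence of pairing. The labels do not say what a number marks. The fits were tested on simulated data, with 200 of 28437 genes changed, an assumed read depth and a dispersion (spread between replicates) of 0.01. For hybrids against MPV, the fit recovered 92% of genes changed 1.5-fold and 100% of those changed 2-fold, with 2 false calls of 194. Between ColXC24 and C24XCol, 69% and 99% were recovered, with 9 false calls of 177. For WT minus ddm1, 42% and 93% were recovered, with 0 false calls of 135. The read depth of the real libraries is unknown and the dispersion was a set value, so these shares describe the simulation only.

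Named genes were the up to 15 above and 15 below MPV with the largest difference among those past the adjusted threshold, without overlap and with a mean of at least 3 rescaled RPM, in each list up to 6 genes past the adjusted threshold or else the 3 with the smallest p, and 20 fixed genes of the flowering, SA, clock and growth pathways; others are said to be chosen after their values were seen. Members and lists were chosen with earlier results of these data known. Sequence windows came from the TAIR10.1 genome, in place of a promoter table. Alternatives were the block, rescaling, pseudocount, filter, MPV definition and weight, single directions, trend and left-out libraries.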

Additional observations from a re-analysis of the deposited data

Results flagged for a closer look

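Among the 6 hybrid libraries, the library farthest from the rest was separated by a gap of over 0.625 of the range in 5 of 112 named genes. Chance alone gives about 5% of such groups. C24XCol replicate 2 was the library set apart for LHY (gap 0.953 of the range), CCA1 (0.933) and ICS1 (0.658), ColXC24 replicate 3 for ACD6 (0.648) and C24XCol replicate 3 for PBS3 (0.629). C24XCol replicate 2 is the hybrid library that stood apart in clock genes. ICS1 stayed below MPV with that library left out, and the cause of its higher ICS1 value was not tested.

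The deviation from MPV differed between the WT and ddm1 backgrounds, at a limma adjusted p under 0.05 over 22329 genes, in 30 of the 112 named genes. Over all 22329 genes it differed in 537 (2.4%). Many named genes were chosen for their WT difference from MPV, which also enters this comparison. The share among them is therefore a description. Values are WT minus ddm1 on the log2 scale. Among SA genes the deviation was higher in WT for SARD1 (1.30), PBS3 (1.26), PAD4 (0.862), NIMIN-2 (1.43), PR1 (1.67), PR5 (1.13), PNP-A (0.681), WRKY38 (0.850) and WRKY51 (1.35). The same held for the camalexin gene CYP71A13 (1.58), the receptor-like genes CRK7 (1.21), CRK14 (0.836), CRK23 (1.13), RLP23 (0.739) and AT1G56120 (1.25), and for NUDT6 (1.09), AT5G10760 (1.02), PCR1 (1.30) and ESM1 (0.782). Further genes higher in WT were AT5G44570 (1.55), AT3G28510 (1.75), AT3G48640 (0.878), AT5G52720 (1.31), AT1G13470 (1.23) and AT5G25260 (1.25). The deviation was lower in WT for the flowering genes SOC1 (-1.18), SPL15 (-0.794) and MAF5 (-1.36), and for the glucosinolate genes ESP (-0.649) and AOP2 (-1.23).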

How the results depend on the processing

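All 96 called genes kept their sign and an unadjusted p under 0.05 in each of the 12 settings that left out libraries, and 88 passed the adjusted threshold without rescaling. The counts moved more. Replicate numbers pair the libraries, and with no replicate block 0 genes lay above and 0 below at the adjusted threshold, and 41 above and 220 below at the unadjusted one. Without rescaling, 181 lay below (adjusted), and 316 above and 3096 below (unadjusted). With MPV as the mean of log2 values, 408 lay above and 144 below (adjusted) and 1830 above (unadjusted). Of the 25 genes called above and the 71 below, 24 and 43 kept the adjusted call then, with medians of 0.55 and -0.52 (against 0.52 and -0.75). Adjusted counts were 109 above and 225 below with MPV values given a weight of 2, 46 and 159 for ColXC24 alone, 16 above with no filter and 12 above without trend. With libraries left out, they ranged from 0 to 125 above and 0 to 250 below, and the unadjusted ones from 474 to 1512 above and 811 to 1913 below. The lowest adjusted counts came without replicate 1 and the highest without C24XCol replicate 2, and without MPV replicate 2 there were 2 above and 5 below. Counts between ColXC24 and C24XCol ranged from 0 to 61, with 61 without replicate 2. Genes differing between WT and ddm1 numbered 179 with no replicate block and 163 to 437 with samples left out, settings partly added after seeing the data.

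The median of the seed list was -0.42 with MPV as the mean of log2 values. Signs reversed for AT3G48640 (0.14), AOP2 (1.29) and CCA1 (0.045) with MPV as the mean of log2 values, for FMO1 (0.10), LHY (0.050), GI (-0.11), CCA1 (0.26) and FRI (-0.043) with C24XCol alone, for PRR7 (-0.017), ACD6 (0.078) and TOC1 (0.22) with ColXC24 alone, and for GI (-0.040) and FRI (-0.076) without rescaling. With libraries left out, values on both sides of 0 were seen for FLS2 (-0.0044 to 0.15), HSP90.1 (-0.22 to 0.0025), GI (-0.077 to 0.16), CCA1 (-0.83 to 0.29), FRI (-0.017 to 0.026), ACD6 (-0.18 to 0.16), TOC1 (-0.38 to 0.22) and DDM1 (-0.16 to 0.0076). Of all these, only AT3G48640 had passed the adjusted threshold in the main comparison. AOP2 passed it with MPV as the mean of log2 values (limma adjusted p 1.2e-05). The cause was not tested. The 0.1 RPM step limits genes as low as FT.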

Other observations

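A few called genes outside the gene lists were singled out after their values were seen. RLP23, a receptor-like protein, had 18.3, 6.32 and 7.33 rescaled RPM in ColXC24 and 15.4, 8.32 and 6.48 in C24XCol, against 28.2, 15.3 and 15.2 in MPV, and both hybrids lay between Col (11.9, 4.27 and 10.5) and C24 (44.4, 26.3 and 19.8) in replicates 1 and 2 and below both in replicate 3 (limma adjusted p 0.0138). MLP31, of the major latex protein family, was listed at 0 in all Col libraries and had 3.42, 4.97 and 1.28 in C24. It had 0, 0.107 and 0 in ColXC24 and 0.443, 0.541 and 0.0876 in C24XCol, so its hybrid values were higher in each replicate number where C24 was the mother. AT3G22235 had 35.7, 78.5 and 63.4 in ColXC24 and 24.6, 63.0 and 58.7 in C24XCol, against 19.6, 27.5 and 33.0 in MPV (difference 0.93, limma adjusted p 0.0401), and missed the threshold with MPV as the mean of log2 values (limma adjusted p 0.0719).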
